A study of Arabidopsis thaliana with 6 samples.

Results

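This report describes 10 genes that set the methylation state of pectin in the Arabidopsis cell wall, namely 8 pectin methylesterases (PME1, PME2, PME3, PME5, PME17, PME18, PME35 and PME41) and 2 pectin methylesterase inhibitors (PMEI1 and PMEI2). They were chosen by locus identifier, so that every non-control spot naming one of the 10 loci was taken, which gave 14 of 43603 probes and 10 of 29030 loci on the array. The study compared whole wild type Col-0 seedlings incubated for 24 h with 1 μM lasalocid sodium (LS), an ionophore that carries cations across membranes, with seedlings incubated without it (control, 0 μM). All seedlings were 3 days old at the start, had germinated in the dark and were kept in the dark at 22 °C in a sucrose-containing liquid medium, and each group holds 3 single-colour Agilent arrays. The sources used here do not say whether the replicates were separate cultures or whether control medium held the solvent of the LS stock, so a p-value measures the spread between these samples, which may be technical.

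Pectin is laid down with most of its homogalacturonan, a chain of galacturonic acid units, in a methylated form. Pectin methylesterases (PMEs) remove the methyl groups in the wall, and the freed acid groups can bind calcium and stiffen the gel or leave the chain open to pectin-degrading enzymes. Pectin methylesterase inhibitors (PMEIs) bind PMEs and block them, and many PMEs are made with an inhibitor-like leading domain that subtilases cut off. The growth of the dark-grown hypocotyl is a well-known setting for this control.

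LS-treated seedlings had more PME41 transcript and less PME5, PME17 and PME35 transcript than control seedlings. PME41 rose 4.33-fold, and PME5, PME35 and PME17 were lower by 2.31-fold, 1.99-fold and 1.77-fold. The calls of the falls were less stable: with 1 array left out in turn, PME41 was called in all 6 fits, PME5 in 1, PME35 in 2 and PME17 in 0. These fits called fewer loci in general, 43 to 502 higher and 16 to 418 lower, against 694 and 478 with all arrays. The log2 fold changes in them were -1.39 to -0.98 for PME5, -1.05 to -0.96 for PME35 and -0.88 to -0.75 for PME17. For PME1, PME2, PME3 and PME18 no change was called, and the inhibitors PMEI1 and PMEI2 were not well above background on any of the 6 arrays. A gene was called when limma, with p-values adjusted over all 32370 probes that gave an estimate, gave a Benjamini-Hochberg adjusted p under 0.05 and the fold change was at least 1.5, and a gene with more than 1 tested probe was read from its brightest one. Of the 8 members tested, 1 was called higher and 3 were called lower. Among all 21827 tested loci, 3.18% were called higher, 2.19% were called lower and 5.37% were called either way. Counted by probe, the shares were 2.59%, 2.45% and 5.04%. Levels below are log2 signals relative to the 75th percentile of the array's own spots, and a level of one gene cannot be set against that of another because each has its own probe.

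The arrays differed in brightness and slide. The 75th percentile of the signal was 1309 to 2123 in the LS group and 1067 to 1447 in the control group, and LS replicate 3 was the brightest array. LS replicate 1 shared a slide with the 3 control arrays, and LS replicates 2 and 3 were on another slide. Correlations between arrays of a group were 0.977 to 0.987 for LS and 0.989 to 0.994 for control over the tested probes. The dark-grown seedling markers PORA and PORB, enzymes of chlorophyll synthesis that etiolated tissue holds at high level, were well above background on all 6 arrays. Of 3 pollen markers none was above background on any array, and of 3 flower markers only PI was. All 3 maturing-seed markers (CRA1, CRU2 and CRU3) were well above background on all 6 arrays, and limma called 0 of them. Their mean levels were 6.49, 0.21 and 6.76 in LS and 6.27, 0.62 and 7.16 in control. The 5 root markers were tested, and none was called by limma, with log2 fold changes of 0.14 to 1.73. At an unadjusted p under 0.05 and 1.5-fold, limma passed 4 as higher (8.82% of all tested loci) and the methods' t-test 2 (5.56%). The summed signal of the root markers was 6.51 to 7.74 times the 75th percentile in the LS group and 3.41 to 4.998 times in the control group. The part of root tissue in the changes below was not tested, and in whole seedlings fewer cells of a type and less RNA per cell cannot be told apart.

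PME41 (AT4G02330), a PME known for its response to chilling, was the member that rose. Its background-subtracted signal was 8054, 6620 and 11505 on LS replicates 1 to 3, against 1984, 1672 and 1187 on control replicates 1 to 3. On the scaled log2 axis these were 2.62, 2.14 and 2.44 in LS-treated seedlings and 0.45, 0.25 and 0.15 in control seedlings. The lowest LS value lay 1.69 above the highest control value, so the groups were far apart. Limma gave a log2 fold change of 2.11 (standard error 0.18, unadjusted 95% interval 1.68 to 2.54) and an adjusted p of 0.00626. LS replicate 1, on the slide of the controls, was 2.33 above the control mean, and the mean of LS replicates 2 and 3 was 2.003 above it. With the slide as a block, which rests the comparison on LS replicate 1, the log2 fold change was 2.33. The gene was called with any 1 of the 6 arrays left out, with log2 fold changes of 2.003 to 2.24. PME41 ranked within the first 0.0803% of all tested probes by p.

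**Figure D1:**
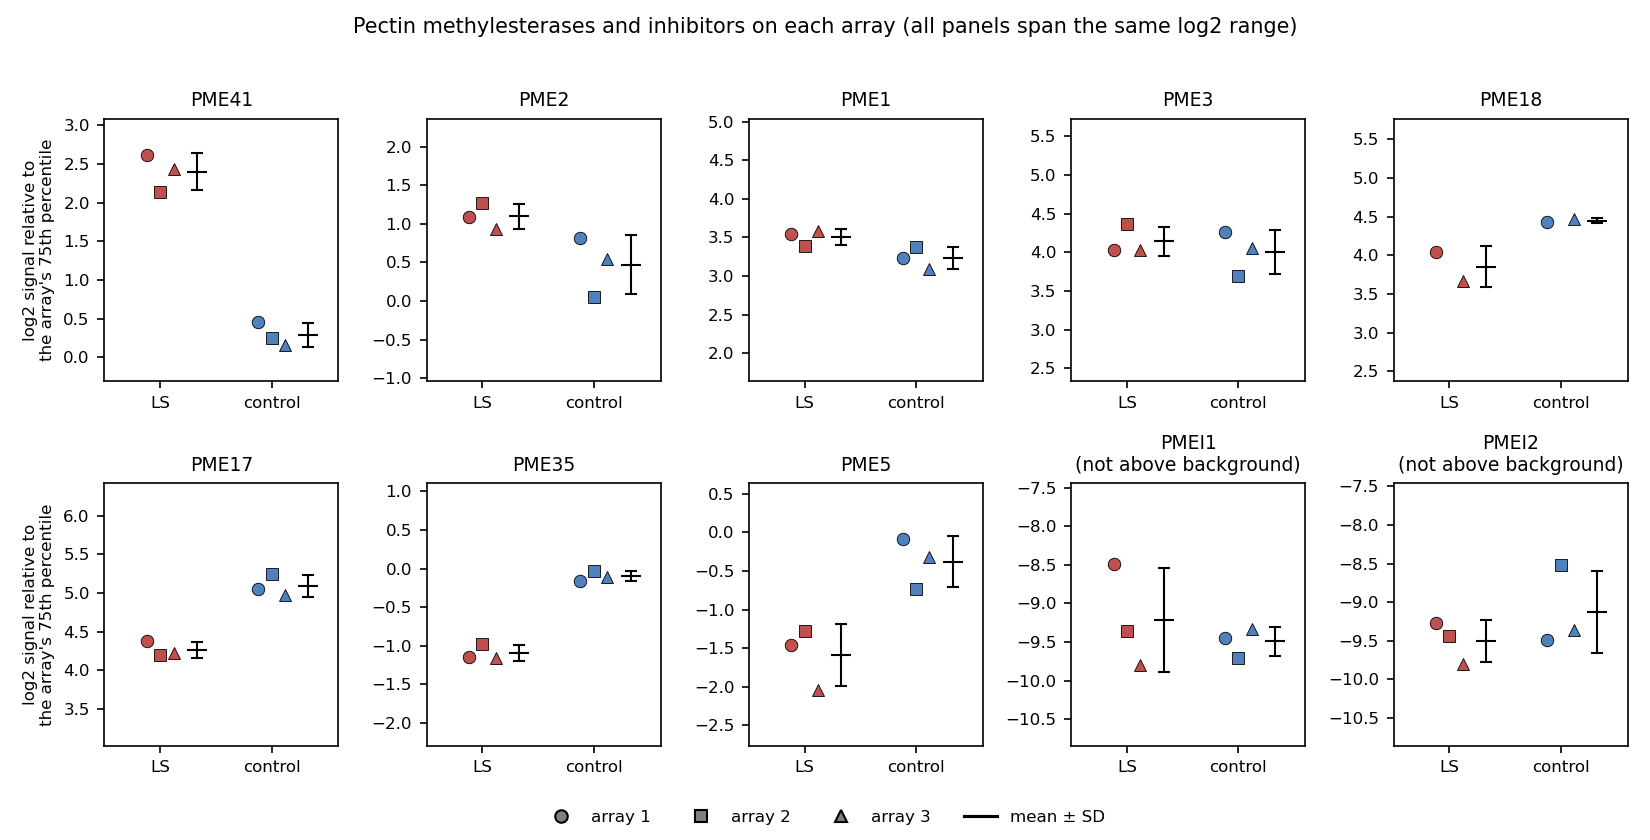
Each panel shows 1 member, with log2 signal relative to the array's 75th percentile on the vertical axis, LS arrays in red and control arrays in blue, a symbol for each replicate number and a bar for the mean ± SD (3 arrays in each group, 2 for PME18). All panels span the same range on the log2 scale. PME41 stood at 2.14 to 2.62 in LS and 0.15 to 0.45 in control, while PME17, PME35 and PME5 were lower on each LS array than on any control array.

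PME5 (AT5G47500), a PME whose overexpression is known to disturb organ formation at the shoot apex, had the largest fall of the tested members. It was at -1.45, -1.27 and -2.04 on LS replicates 1 to 3 and at -0.09, -0.73 and -0.32 on control replicates 1 to 3. All LS arrays were below all control arrays, and the highest LS value lay 0.54 below the lowest control value. Limma gave -1.21 ± 0.26 (standard error) for the log2 fold change, with an adjusted p of 0.0448, close to the threshold. The call was lost with any control replicate left out, and without LS replicate 1 or LS replicate 3. In these 5 fits the log2 fold change was -1.39 to -0.98.

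PME35 (AT3G59010) is known for its part in the mechanical strength of the stem, where it acts on the walls of fibre cells. Its brighter probe was at -1.15, -0.98 and -1.16 on LS replicates 1 to 3 and at -0.17, -0.04 and -0.11 on control replicates 1 to 3. The replicates lay close together, with an SD of 0.10 in LS and 0.06 in control, and the gap between the groups was 0.82. Limma gave -0.99 ± 0.15 (standard error) for the log2 fold change, with an adjusted p of 0.0252. The call was lost with any control replicate or LS replicate 1 left out, with log2 fold changes of -1.02 to -0.96, and kept without LS replicate 2 or LS replicate 3. A second probe for PME35 was above background on 0 of 3 LS arrays and 2 of 3 control arrays and was not tested.

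PME17 (AT2G45220), which is known to be induced by fungal infection and to be processed by the subtilase SBT3.5, was at 4.38, 4.19 and 4.22 on LS replicates 1 to 3 and at 5.05, 5.25 and 4.97 on control replicates 1 to 3. The groups did not overlap, with a gap of 0.59. Before scaling, the signal was 27294, 27412 and 39553 on LS replicates 1 to 3 and 47844, 53337 and 33503 on control replicates 1 to 3. The unscaled signal of LS replicate 3, the brightest array, was thus within the control range, and the separation rests on the scaling. Limma gave -0.82 ± 0.16 (standard error) for the log2 fold change, with an adjusted p of 0.0350. It was -0.88 to -0.75 with 1 array left out and not called in any of these 6 fits.

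On the slide that LS replicate 1 shared with the controls, its distance from the control mean was -1.07 for PME5, -1.04 for PME35 and -0.71 for PME17. The mean of LS replicates 2 and 3 on the other slide was -1.28, -0.97 and -0.88 away from the control mean for these genes. When the slide entered the fit as a block, the comparison rested on LS replicate 1. The log2 fold change was then -1.07 for PME5, -1.04 for PME35 and -0.71 for PME17. Their calls were lost in this fit, in which a single LS array faced the controls, so only the effect sizes are given.

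The tandem pair PME1 (AT1G53840) and PME2 (AT1G53830), which are next to each other on the chromosome, had higher levels on every LS array than on any control array, and neither was called. PME1 was at 3.55, 3.39 and 3.58 in LS and at 3.23, 3.37 and 3.09 in control. The lowest LS and the highest control value were 0.01 apart, and the log2 fold change of 0.27 had a 95% interval of -0.10 to 0.64 (adjusted p = 0.320 from limma). PME2, a PME linked to the elongation of dark-grown hypocotyls, was at 1.09, 1.26 and 0.94 in LS and at 0.81, 0.06 and 0.55 in control. The control arrays spread more widely than the LS arrays, and the log2 fold change was 0.63 (95% interval 0.10 to 1.15, adjusted p = 0.136 from limma). The dimmer probe of PME2 was also higher in LS, at -4.94, -4.83 and -3.83 against -5.59, -5.48 and -6.41 in control, with a log2 fold change of 1.29 (adjusted p = 0.0821 from limma). When the probes of a gene were averaged, PME2 was called higher, with 0.96 (adjusted p = 0.0329 from limma). The dimmer probe in that average had background-subtracted signals of only 42.6, 52.9 and 149.1 in LS and 30.1, 31.5 and 12.6 in control. With another background correction (normexp) the log2 fold change of this probe was 0.46.

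PME3 (AT3G14310), a widely expressed PME linked to adventitious rooting and to infection by cyst nematodes, was at 4.03, 4.36 and 4.04 in LS and at 4.26, 3.70 and 4.06 in control. The groups overlapped, and the log2 fold change was 0.14 (95% interval -0.33 to 0.60, adjusted p = 0.708 from limma). Its dimmer probe was at 1.12, 0.70 and 0.86 in LS and at 0.58, 0.52 and 0.55 in control, a log2 fold change of 0.34 (adjusted p = 0.244 from limma). The interval of the brighter probe allows a ratio of LS to control between 0.794 and 1.52.

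PME18 (AT1G11580), a PME for which a ribosome-inactivating activity has also been described, was the member whose probes differed in sign. The brighter probe was marked as an outlier spot on LS replicate 2 and control replicate 2, and the fit dropped these values. The remaining values were 4.04 and 3.66 in LS and 4.43 and 4.47 in control, with a log2 fold change of -0.60 (adjusted p = 0.183 from limma). With the marks ignored, the dropped values were 3.39 for LS and 3.79 for control, and the groups overlapped (log2 fold change -0.53, adjusted p = 0.239 from limma). The dimmer probe was at 1.86, 1.34 and 2.13 in LS and at 1.53, 1.28 and 1.30 in control, a log2 fold change of 0.41 (adjusted p = 0.303 from limma). Neither probe was called, and the direction for PME18 was not settled.

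**Figure D2:**
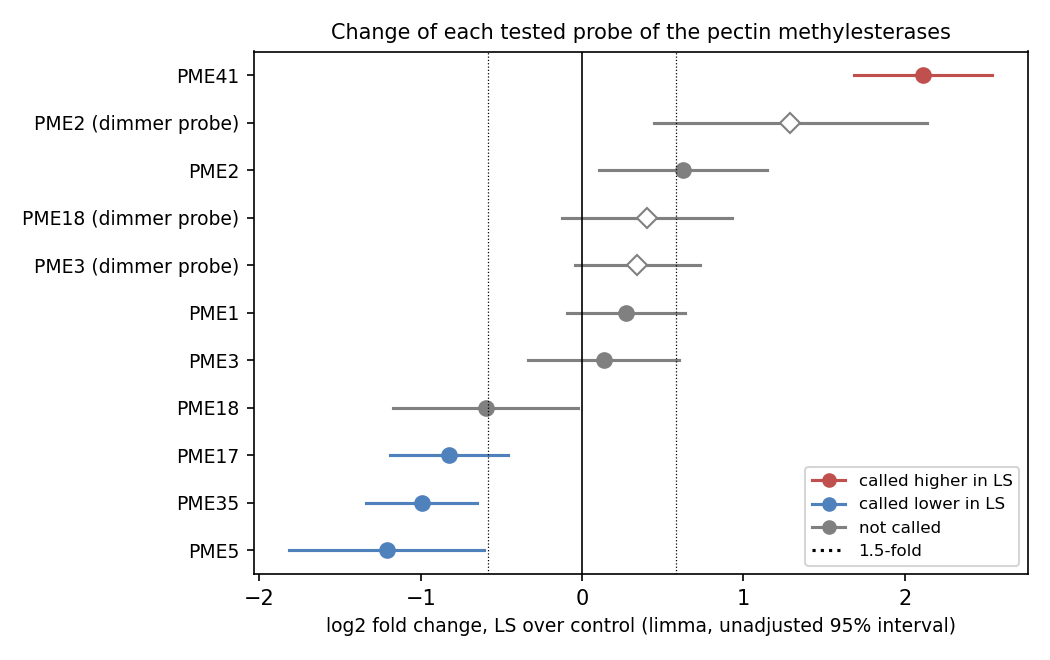
The horizontal axis gives the log2 fold change of LS over control from limma for each of the 11 tested probes, with its unadjusted 95% interval. Filled circles are the brightest probe of a gene, open diamonds are the dimmer probe, red and blue mark calls and dotted lines mark 1.5-fold. PME41 stood at 2.11, the called falls were between -1.21 and -0.82, and the PME18 probes lay on either side of 0.

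The inhibitors PMEI1 (AT1G48020) and PMEI2 (AT3G17220) are known from pollen. PMEI1 was at -8.49, -9.35 and -9.80 in LS and at -9.44, -9.70 and -9.33 in control, and PMEI2 was at -9.26, -9.44 and -9.80 in LS and at -9.49, -8.52 and -9.36 in control. Both probes were not well above background on all 6 arrays, and the dimmest probe still well above background on each array was at -7.49 to -7.07. The groups overlapped for both genes, no fold change is given, and the balance of PMEs and these inhibitors could not be compared between the groups. The pollen-type PME genes VGD1 and PPME1 were likewise not well above background on any array.

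The 11 tested probes of the members were well above background on all 6 arrays, so none was tested through 1 group alone. For 6 of the 8 tested members all LS arrays lay on one side of all control arrays, 3 above and 3 below, which was also the case for 35.1% of all tested loci. PME3 overlapped, and PME18 was not counted because of its missing values. With 3 arrays in each group, the smallest p of an exact permutation test is 0.1. The median log2 fold change of the 8 members was -0.23, beside -0.03 for all tested loci. The members' median depended on the processing, at -0.01 with quantile scaling, 0.43 with spike-in scaling and 0.13 with the probes of a gene averaged. The methods' t-test on the same values, at an unadjusted p under 0.05 and the 1.5-fold threshold, called the same 4 members, and 5.56% of all tested loci as higher and 4.51% as lower. Limma at that unadjusted threshold added PME2 and PME18, and passed 8.82% of all loci as higher and 9.03% as lower. After Benjamini-Hochberg adjustment the t-test called 0 of the 8, and 1 of all tested loci. With the arrays scaled on their spike-in controls the median of all loci shifted to 0.54, and 91.8% of all calls were rises, against 59.2% in the scaling used here. In that scaling PME41 had 2.68 and was called, while PME5, PME35 and PME17 had -0.64, -0.42 and -0.25 and were not called.

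The rest of the pectin machinery, from lists of loci chosen by function, gave a setting for these values. Of 53 other PME loci, 28 were tested. Limma called 6 of these higher and 1 lower, with a median log2 fold change of 0.62. The largest called rises were AT5G51490 with 2.20 (standard error 0.40, adjusted p = 0.0319 from limma) and AT2G47550 with 2.10 (standard error 0.21, adjusted p = 0.00911 from limma). AT3G05610, the one called lower (adjusted p = 0.0363 from limma), was well above background on 3 control arrays and 0 LS arrays, so it entered the test only through the group in which it was higher. It was at least 1.51-fold lower in LS, and with the filter on all 6 arrays 24 of these loci were tested and 0 were called lower. Without adjustment, limma called 13 of the other PMEs higher and 7 lower, and the methods' t-test called 9 higher and 4 lower. Over all tested loci, these thresholds passed 8.82% as higher and 9.03% as lower with limma, and 5.56% and 4.51% with the t-test. Of 18 other PMEI loci, 15 were tested. Limma called 3 of these higher and 0 lower. Without adjustment and at 1.5-fold, limma passed 5 higher and 1 lower, and the methods' t-test 3 higher and 0 lower. The largest called rises among the inhibitors were AT4G25250 with 2.05 (adjusted p = 0.0113 from limma) and AT5G51520 with 1.701 (adjusted p = 0.0455 from limma). With 1 array left out, 1 to 6 of the other PMEs and 0 to 1 of the other PMEIs were called higher. Over all tested loci these fits called 43 to 502 higher, against 694 with all arrays. The calls of both lists were lost with the slide as a block, which rests on LS replicate 1. Their median log2 fold changes in that fit were 0.66 for the other PMEs and 0.61 for the other PMEIs. In the processing used they were 0.62 and 0.36.

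The 12 loci listed under synthesis and methylation of homogalacturonan, the substrate of the members, were all tested. The part of each locus in this synthesis was not tested here. Limma called 0 of them after adjustment. Without adjustment and at 1.5-fold, limma passed 3 higher and 0 lower, beside 8.82% and 9.03% of all tested loci. The methods' t-test without adjustment called 1 higher (5.56% of all tested loci). The log2 fold changes of these 12 loci were all above 0, from 0.17 to 0.68, with a median of 0.43, while 46.9% of all tested loci were above 0. Of 29 loci for pectate lyases and polygalacturonases, which cut demethylated pectin, 20 were tested. Limma called 0 of these higher and 1 lower. The fall was that of PGAZAT, a polygalacturonase of abscission zones also called ADPG2, with -1.17 (standard error 0.19, adjusted p = 0.0266 from limma). Without adjustment and at 1.5-fold, limma passed 2 of this list as higher and 3 as lower, and the methods' t-test 0 and 2. In this list 0 loci were called lower in 4 of the 6 fits with an array left out, 1 without LS replicate 3 and 3 without LS replicate 2. Over all loci, 16 to 225 were called lower in these 4 fits, and 200 and 418 in the other fits. With the replicate number as a block or with spike-in scaling 0 of the list were called lower, and 109 and 66 of all loci, against 478 in the processing used. The call of PGAZAT was also lost with the slide as a block, which rests on LS replicate 1. Of 12 pectin acetylesterase loci, 10 were tested, and AT1G57590 was called higher, with 2.93 (standard error 0.30, adjusted p = 0.0107 from limma). Its control levels of -5.86, -5.84 and -6.93 lay near the dimmest probes well above background, at -7.21, -7.38 and -7.12 on these arrays. All 3 listed subtilases that process PMEs were tested, and limma called 0. SBT3.5, which cuts PME17, had 0.62 on the log2 scale (adjusted p = 0.1002 from limma), and the others had -0.26 and 0.21.

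**Figure D3:**
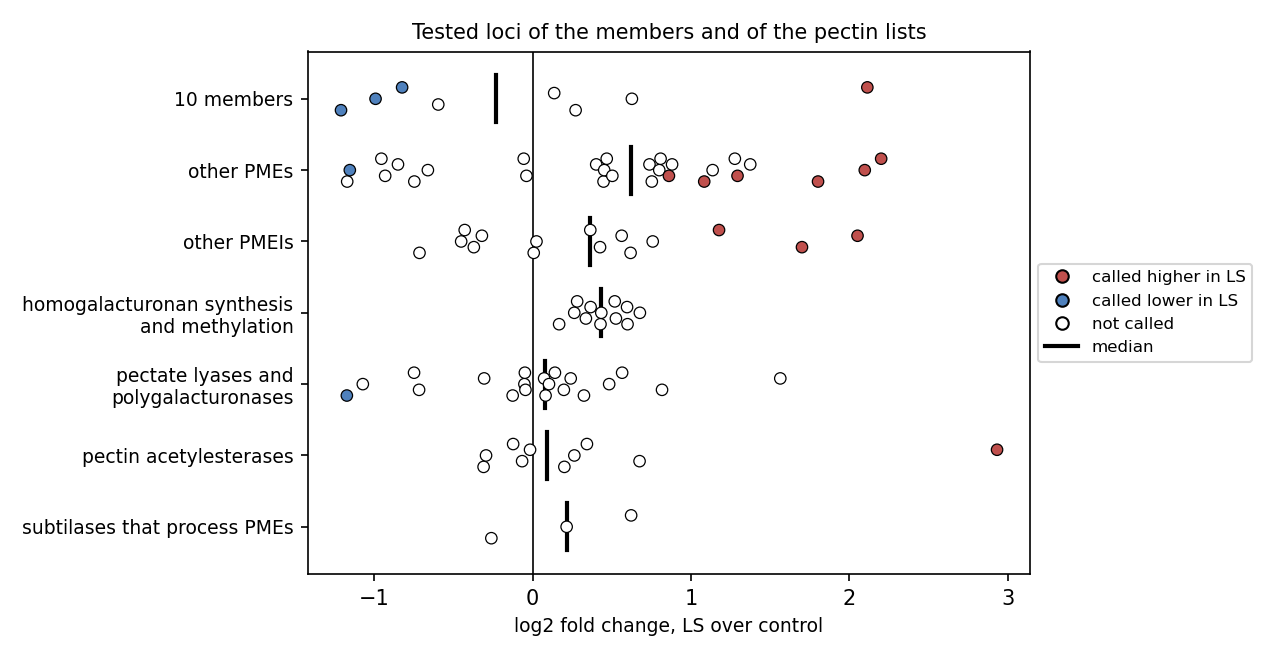
Each point is the brightest tested probe of a locus, with the log2 fold change of LS over control on the horizontal axis and the members and pectin lists down the page. Red and blue mark calls by limma, and black bars mark medians, which were -0.23 for the 8 tested members and 0.62 for the 28 other tested PMEs.

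**Figure D4:**
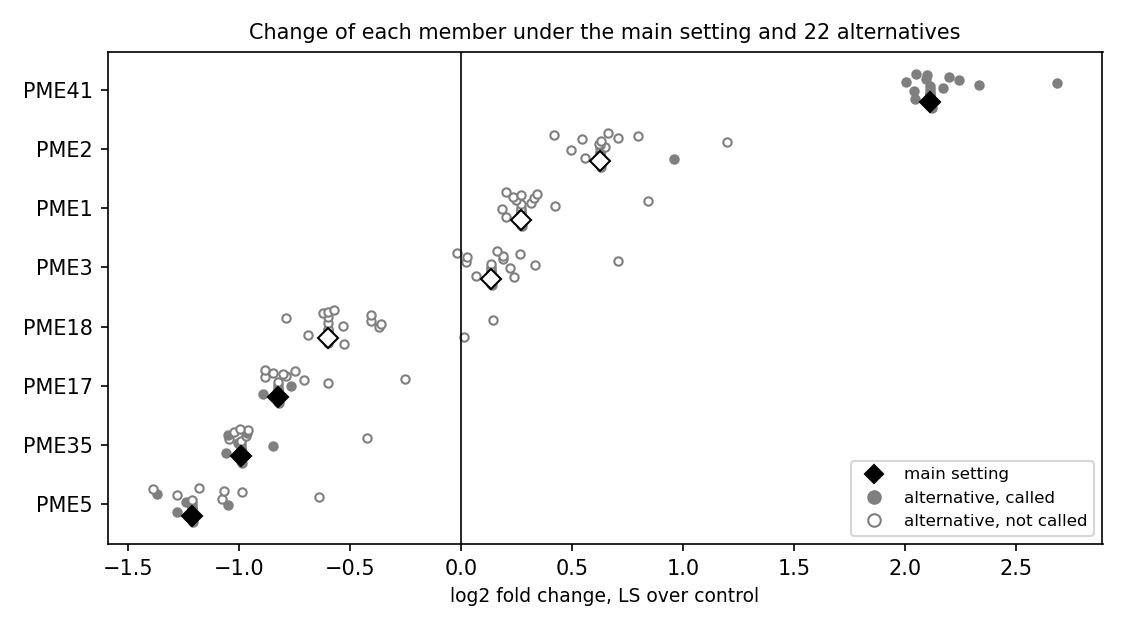
The horizontal axis gives the log2 fold change of LS over control for each tested member in the processing used here (diamond) and under 22 alternatives (circles, spread vertically only to separate them), filled where the member was called. PME41 was called under 21 of the 22 alternatives, PME5 and PME35 under 12 each and PME17 under 9, and none of these 4 changed direction under any of them. Changing only the filter, outlier marks, test, adjustment, fold threshold or replicate block left their log2 fold changes as they were, so direction could not turn there. Dropping limma's adjustment or the fold threshold could only keep a call.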

How the data were processed

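RNA from whole seedlings was labelled with Cy3 and hybridised to 6 Agilent arrays. The authors ran Agilent Feature Extraction 10.7.3.1, and each deposited scanner file holds, for every spot, a linear intensity from which background had been subtracted. A further table deposited by the authors covers 38614 spots and gives the ratio of this signal to the 75th percentile of its array. It was used as an alternative, and 0 columns were left unmapped.

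Control spots (1417) were left out, log2 processed signals were centred on each array's 75th percentile, outlier spots were set missing (252 tested probes) and spots of a probe were averaged. Testing was limited to probes well above background on all arrays of one or both groups, 32372 of 43603, of which 32370 gave an estimate. Groups were compared with limma 3.58.1 in R 4.3.3, tested on simulated data first. A locus was represented by its brightest tested probe, and the RefSeq table of assembly TAIR10.1 held 21613 of the 21827 tested loci. Its build differs from that of the array design, so no coordinates are given. Probes of related loci may share sequence, and probe sequences were not used here. All members were named, as were the 2 largest called rises and falls of each pectin list; SBT3.5 and the chromosomal neighbours of members were added after their values were seen. Members and lists were chosen with earlier results of these data known.

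The 22 alternatives were quantile, median and spike-in scaling, normexp on the median signals with an offset of 50, no dim-probe filter or one on all 6 arrays, keeping outlier spots, limma without adjustment, the methods' t-test (Welch) adjusted or not, a fold threshold of 2 or none, the mean of a gene's probes, the replicate number or the slide as a block, the deposited table, and each array left out.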

Additional observations from a re-analysis of the deposited data

How the results depend on the processing

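The count of members called higher, 1 in the processing used, was 0 with the methods' t-test after adjustment (PME41 adjusted p = 0.189), and 2 with limma without adjustment or with the probes of a gene averaged, PME2 being added in both. The count called lower, 3, was 0 with spike-in scaling, without a filter on dim probes, with the methods' t-test after adjustment and with the replicate block. In these settings 66, 67, 0 and 109 of all loci were called lower, against 478 in the processing used. The falls also lost their calls with the slide as a block, which rests on LS replicate 1. The count was 1 (PME5) with a fold of at least 2. With quantile scaling it was 2, as PME17 had -0.60 (adjusted p = 0.0842 from limma). With each array left out in turn, 1 member was called higher in all 6 fits and 0 to 2 were called lower. Over all loci these fits called 43 to 502 higher and 16 to 418 lower. Signs turned for PME3, which had -0.018 without control replicate 2 and up to 0.26 with another array left out, and for PME18, with 0.15 under spike-in scaling and 0.013 with its probes averaged. The cause was not tested. The log2 fold changes of the other 6 tested members kept their direction under the alternatives. Alternatives that changed only the filter, test, adjustment, fold threshold or replicate block left these estimates as they were, so direction could not turn there. Replicate numbers did not pair the arrays: same-numbered LS and control arrays correlated in their deviations at 0.03, -0.12 and -0.19, and no LS array correlated best with its own number. With the replicate number as a block, 170 loci were called higher and 109 lower, against 694 and 478, and PME41 had an adjusted p of 0.0312 from limma. The 3 arrays in each group limit all values, and those of PMEI1 and PMEI2 are set by background.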

Other observations

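Several members lie beside related genes in the gene order of TAIR10.1. Of the neighbours from the PME list, none that was tested was called by limma. AT3G14300, the PME next to PME3, had a log2 fold change of 0.80 (adjusted p = 0.174 from limma), beside 0.14 for PME3. PME41 lies next to the PME AT4G02320, which was not tested because its probe was dim, and 3 genes from the PME AT4G02300. Its probe was close to background, at -6.95, -7.66 and -7.33 in LS and -6.31, -6.87 and -6.52 in control, and was well above background on 2 of 3 LS arrays and 3 of 3 control arrays. AT1G11590, next to PME18, was also too dim to be tested. These neighbours were picked by position after their values were seen. The difference between a member and its neighbour was not tested.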
